A study of Homo sapiens with 18 samples.

Results

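The transcriptome response to 1 of the KMT2D small interfering RNAs (siRNAs), named siRNA1 in the labels, was compared with that to a control siRNA in 3 human pancreatic ductal adenocarcinoma cell lines. The members were chosen by treatment label alone: 3 KMT2D siRNA1 libraries (PANC1, COLO357 and SUIT2) and the 3 Control siRNA libraries of the same lines, 6 of the 18 libraries in the study. All cells had carried an siRNA for 48 h, so the controls are transfected cells too. RNA was depleted of ribosomal RNA and sequenced as strand-marked total RNA in paired reads of 100 nt. The remaining libraries, 3 with KMT2D siRNA2 and 9 with KMT2C siRNA1, siRNA2 or siRNA3, entered the fit to share the estimate of the spread, and served as references that do not involve the control siRNA. Each siRNA had 1 library per line, so the line is the replicate. The labels do not say that libraries came from separate cultures, so p-values measure only the spread between these libraries, which may be partly technical.

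KMT2D (also known as MLL4) is a large methyltransferase that places methyl marks on lysine 4 of histone H3, mainly at enhancers, and works in a complex with WDR5, RBBP5, ASH2L and DPY30 and with the demethylase KDM6A. It helps enhancers become active during differentiation and is often mutated in cancer. An siRNA guide strand directs cleavage of a matching messenger RNA, and its first bases, the seed, can also lower other messengers that hold the complement of the seed, often in the 3′ untranslated region (3′ UTR), in the manner of a microRNA. For this reason the 3′ UTRs of the lowered genes were searched for a shared run of 7 bases.

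The most enriched run of 7 bases in the 3′ UTRs of the lowered genes was GCATCAT, and examples are shown because most of the largest falls carried it. Each window holds 22 bases before the run, the run in capitals and 1 base after it, 5′ to 3′ on the messenger strand. Sequences and positions are from GENCODE v29 transcripts on GRCh38, while the deposited counts were made on hg19 and carry no coordinates.
MYOF, 3′ UTR, chr10:93306772-93306801, minus strand: gtcaggccaacaagcaacgtttGCATCATg
CPT1A, 3′ UTR, chr11:68757251-68757280, minus strand: gcctagtgcttaagggcatttaGCATCATc
CPT1A, 3′ UTR, chr11:68756319-68756348, minus strand: cagtatttaatgcaaaaatgaaGCATCATg
NEDD8, 3′ UTR, chr14:24217076-24217105, minus strand: ttaccctgtcgctcataatgagGCATCATa
FAM20B, 3′ UTR, chr1:179072370-179072399, plus strand: caattgctcattctagggttggGCATCATa
KMT2D, coding sequence, chr12:49026459-49026488, minus strand: gacgaggtgaagcaaatcgctaGCATCATt
The bases around the run differ between these messengers. The KMT2D coding sequence held it 2 times, and the window above is the one that lies within 1 exon, while the KMT2D 3′ UTR held none. The siRNA1 sequence was not at hand, so whether its guide strand pairs with these sites was not tested.

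The 6 libraries held 21244832 to 32115894 read pairs counted to genes. Entries that name no gene took 34.3% to 42.0% of the read pairs listed, and those in no annotated feature 7.49% to 16.5% with control siRNA and 10.5% to 12.1% with siRNA1, so the groups overlapped in both. The ductal epithelial markers KRT8, KRT18, KRT19, EPCAM and CDH1 were present in all 3 lines, with the lowest control level of each in PANC1. KRT8 stood at 449.7, 2125 and 3045 CPM (gene counts scaled to a common library size) in the PANC1, COLO357 and SUIT2 controls. EPCAM was at 17.1, 304 and 584 CPM and CDH1 at 17.3, 164 and 289 CPM. Several other markers were near 0 in PANC1: KRT7 (3.03 CPM), MUC1 (1.42 CPM), CA2 (0.955 CPM), SLC4A4 (0.165 CPM) and CFTR (0 CPM). MUC1 was also low in SUIT2 (0.637 CPM) and CFTR in COLO357 (0.0943 CPM). The summed level of 12 fibroblast markers ranged from 2.86 to 82.1 CPM with control siRNA and 4.98 to 58.9 CPM with siRNA1, that of 13 leukocyte markers from 1.51 to 10.5 and 0.946 to 9.47 CPM. The endothelial, acinar and islet lists summed to at most 10.4, 1.84 and 20.6 CPM in the controls, and PECAM1, the lymphocyte genes CD3D, CD2 and MS4A1, PRSS1, INS, GCG and SST were at 0 in all 6 libraries.

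The targeted messenger, KMT2D (ENSG00000167548), was lower with siRNA1 in each line, but unequally. It went from 27.4 to 21.9 CPM in PANC1, from 32.2 to 14 CPM in COLO357 and from 67.3 to 23.4 CPM in SUIT2, on average 52.7% of the same line's control. The log2 fold change was -1.01 (SE 0.286), and edgeR's quasi-likelihood test placed it just outside the threshold (adjusted p = 0.0553). It passed with DESeq2 (adjusted p = 0.0165), with limma-voom (adjusted p = 0.0345) and in a fit of the 6 libraries alone (adjusted p = 0.00904). KMT2D was also called without a filter, and the smallest adjusted p among these settings was 4.2e-05. It did not pass with RLE scaling (adjusted p = 0.0639), with a stricter filter (adjusted p = 0.0555) or without any single library other than the PANC1 control (adjusted p up to 0.309). Against the mean of the 3 KMT2C siRNAs, which leaves the controls out, the difference in KMT2D was -1.67 (log2, SE 0.255, adjusted p = 0.000488). KMT2D itself was at 0.16, 1.02 (adjusted p = 0.0401) and 0.78 with KMT2C siRNA1, siRNA2 and siRNA3 against control, so that reference stood above the controls. An antisense gene, DDN-AS1, overlaps KMT2D, and whether the authors' counting used strand is not stated in the labels. Its paralog KMT2C did not pass against control (log2 fold change 0.07, SE 0.205, adjusted p = 0.905).

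Partners of KMT2D in the methyltransferase complex did not pass the test against control. Of 18 tested genes of the KMT2 family and its complexes, 0 were called by edgeR (4.02% of all genes tested). Their median log2 fold change was -0.16, with 5 members above 0. Against the KMT2C siRNAs, 8 of the 18 were called, 7 lower and 1 higher (12.9% of all genes tested), with a median of -0.24. KMT2D was among the lower genes, and the 1 higher gene was KMT2C (0.68), the target of that reference. WDR5, the scaffold that binds the catalytic subunit, had the smallest adjusted p after KMT2D (log2 fold change 0.50, adjusted p = 0.0701), and KDM6A, the demethylase of the same complex, was at -0.08. KDM6A was nearly absent from SUIT2, at 0.0455 CPM with control siRNA and 0.0377 CPM with siRNA1, while PANC1 (51.8 and 44.4 CPM) and COLO357 (76.6 and 78.8 CPM) expressed it.

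Across the transcriptome, 845 of 21028 genes tested (4.02%) reached an adjusted p under 0.05. Of these, 387 rose (1.84% of genes tested) and 458 fell (2.18%). Among the raised and the lowered genes, 377 and 450 had the same direction in all 3 lines. Both sets were mostly protein-coding, with 352 and 414 genes, and 176 and 206 changed at least 2-fold. COLO357 moved least: the median log2 ratio of the lowered genes was -1.08 in PANC1, -0.65 in COLO357 and -1.05 in SUIT2, and that of the raised genes 0.87, 0.73 and 1.17. The total depended on single libraries, being 312 without the SUIT2 siRNA1 library, 371 without the SUIT2 control and 426 without the PANC1 siRNA1 library, and most of those genes (305, 357 and 405) were among the 845.

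Genes were named by size among those past the test with a mean of at least 2 CPM, a protein-coding symbol and the same direction in each line. MYOF (ENSG00000138119), which encodes the membrane-repair protein myoferlin, went from 1282 to 248 CPM in PANC1, from 903 to 269 CPM in COLO357 and from 789 to 130 CPM in SUIT2. Every siRNA1 library lay below every control library. The fall was 4.57-fold (log2 fold change -2.19, SE 0.181, adjusted p = 1.39e-07). CPT1A (ENSG00000110090), the enzyme that admits long-chain fatty acids to mitochondria for oxidation, went from 367 to 76.8 CPM, from 381 to 106 CPM and from 243 to 50.4 CPM in the same order. Its groups did not overlap either, and it fell 4.29-fold (log2 fold change -2.10, SE 0.167, adjusted p = 1.16e-07).

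NEDD8 (ENSG00000129559), the ubiquitin-like protein that activates cullin ligases, went from 43.6 to 7.04 CPM in PANC1, from 28.5 to 10.3 CPM in COLO357 and from 28.8 to 6.26 CPM in SUIT2, with no overlap between the groups. It fell 4.16-fold (log2 fold change -2.06, SE 0.238, adjusted p = 1.33e-05), although its gene overlaps the read-through NEDD8-MDP1 and, on the opposite strand, GMPR2. Among substrate adaptors of such ligases, ASB9 fell by 2.18 and WSB2 by 1.95 in log2 units. PHF5A (ENSG00000100410), a subunit of the SF3b splicing complex, went from 41.8 to 8.31, 43 to 17.8 and 31.9 to 5.55 CPM, again with no overlap, and fell by 2.03 (SE 0.197, adjusted p = 2.12e-06).

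CHMP3, an ESCRT-III subunit that helps cut membranes in endosomes and at cytokinesis, had the largest fall of the naming rule, with a log2 fold change of -2.31 (SE 0.367, adjusted p = 0.00195). It stood at 54.7, 36.8 and 49.4 CPM with control siRNA and 6.04, 13.1 and 7.47 CPM with siRNA1 in PANC1, COLO357 and SUIT2. Its reads may be shared with the read-through RNF103-CHMP3. The kinase STK38, a relative of the Hippo kinases LATS1 and LATS2, fell by 1.87, the mitochondrial outer membrane channel VDAC3 by 1.91 and the xylose kinase FAM20B, which acts in glycosaminoglycan synthesis, by 1.81. SYPL1, TMED8, the lysosomal storage disease gene CLN6, the platelet-activating factor receptor PTAFR and SERTAD4 made up the 15, with log2 fold changes from -2.06 to -1.82. PTAFR (0.362 CPM) and SERTAD4 (0.329 CPM) were nearly absent from the PANC1 control. SERTAD4 was not called without the SUIT2 siRNA1 library (adjusted p = 0.148), and the other 14 were called whichever of the 6 libraries was left out.

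**Figure D1:**
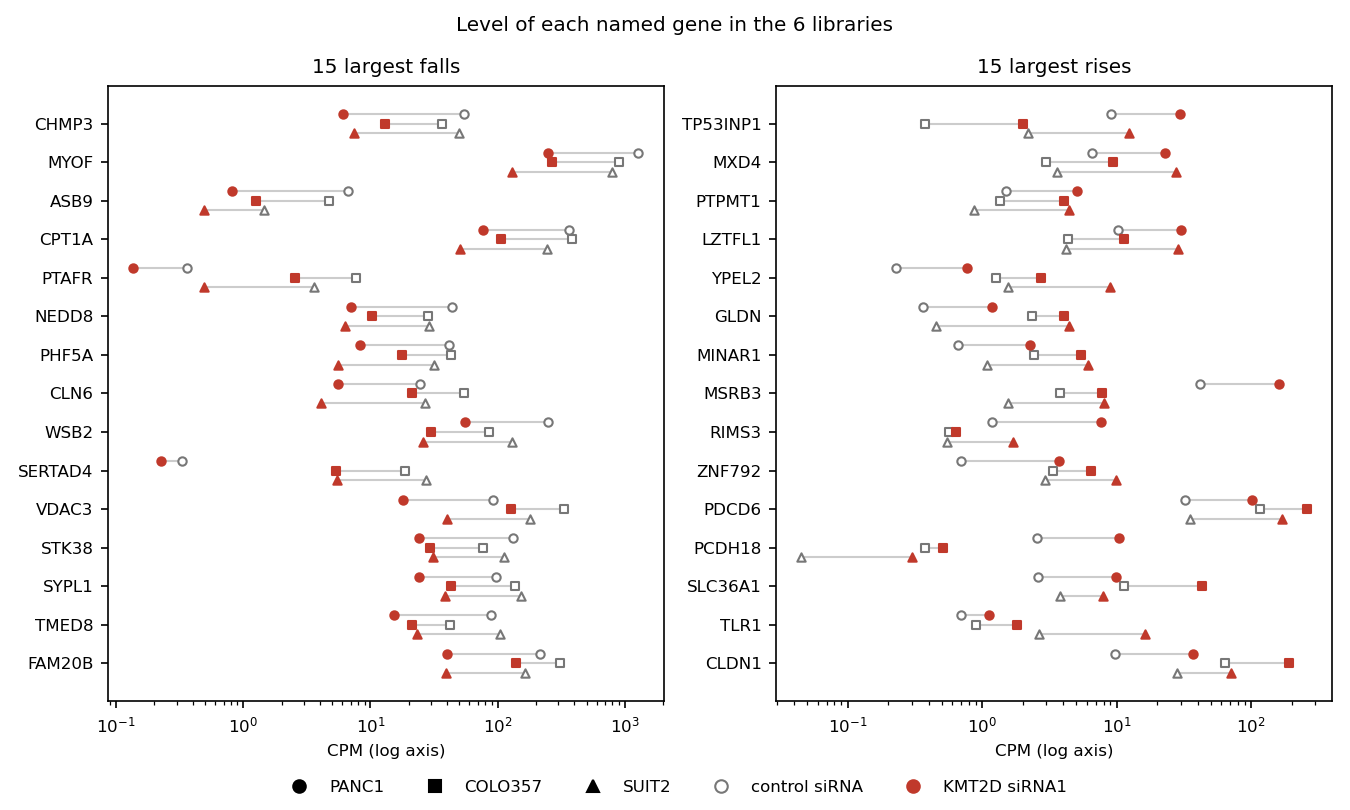
Level of the 15 largest falls and the 15 largest rises in CPM on a log axis, with open symbols for control siRNA, filled symbols for KMT2D siRNA1, 1 symbol shape per line and a grey line joining the libraries of a line. MYOF and CPT1A dropped by similar steps in the 3 lines, from 243 to 1282 CPM with control siRNA to 50.4 to 269 CPM with siRNA1, whereas many raised genes started below 5 CPM.

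Most of these falls carried GCATCAT. Of the 15, 12 held it in the 3′ UTR and 2 (PTAFR and CLN6) only in the coding sequence, while WSB2 held it in neither. Of the 15 largest rises, 3 (LZTFL1, RIMS3 and SLC36A1) held it in the 3′ UTR and 1 (GLDN) only in the coding sequence. The run was found in the same libraries as the named falls, so a high share among those falls was favoured in advance. The search itself used 11471 genes with a mean of at least 2 CPM and a 3′ UTR in the reference. In each pair of lines, the 200 genes with the lowest ratios were compared with all other genes matched for UTR length, and the line left out was then examined. GCATCAT came first in each of the 3 pairs. It was held by 55.5% of the 200 lowest genes in PANC1 and COLO357 (95% Wilson interval 48.6% to 62.2%) against 9.69% of matched others, by 59.5% against 9.30% in PANC1 and SUIT2, and by 40.5% against 8.22% in COLO357 and SUIT2.

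The line that had no part in the search showed the same shift. Median log2 ratios of the 968 holders and the 10503 other genes were -0.31 and 0.02 in PANC1, -0.13 and 0.03 in COLO357 and -0.19 and 0.05 in SUIT2. Among 12120 runs of 7 bases held by at least 300 genes, holders of GCATCAT had the lowest median in each left-out line. These are descriptions of genes, which are not replicates, and carry no test.

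The shift differed between kinds of match, and was small or absent for those without the first base of the run. Genes whose 3′ UTR held the 8 bases GCATCATA (217 genes) had a median log2 fold change of -0.41, and 29.03% of them were called lower. Those with GCATCAT and another base after it (751 genes) had -0.16 and 13.98%. The shifted run CATCATA (637 genes) gave -0.00 and 3.61%, the 6 bases CATCAT alone (1814 genes) 0.03 and 1.98%, and no such run (8052 genes) 0.04 and 2.14%. By line, genes with CATCATA and with no such run had median ratios of -0.10 and 0.04 in PANC1. These were 0.02 and 0.02 in COLO357 and 0.06 and 0.05 in SUIT2. With 2 or more copies of GCATCAT (102 genes) the median was -0.35, and with 1 copy (866 genes) -0.19. Holders in the coding sequence alone (1413 genes) had -0.15, with 7.22% called lower, against 0.06 and 1.42% in the 9090 genes that held it in neither region. Long 3′ UTRs hold any short run more often. Among the shortest of 5 equal groups by UTR length the medians were -0.70 for 27 holders and 0.04 for the 2273 others, and among the longest -0.11 for 524 holders and 0.06 for 1770 others.

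**Figure D2:**
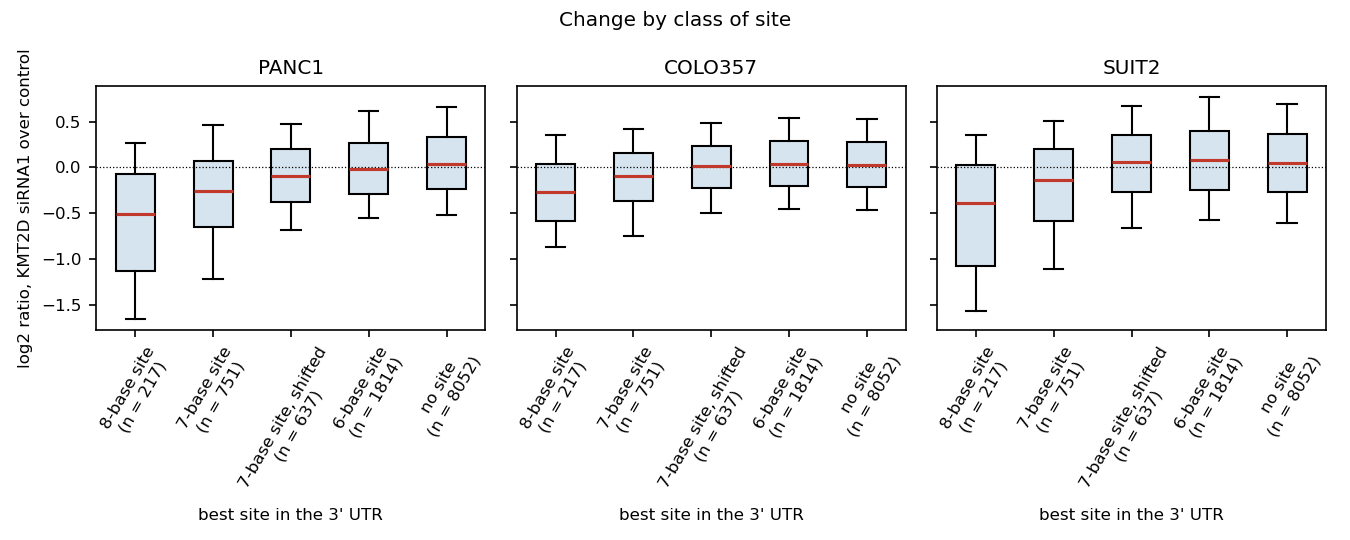
Log2 ratio of KMT2D siRNA1 over control in each line, by the best match in the 3′ UTR, with boxes from the first to the third quartile, a red line at the median and whiskers from the 10th to the 90th percentile of genes. The 217 genes with the 8-base match sit lowest in each line and the 8052 genes with no match lie around 0.

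Of the 399 lowered genes that could be searched, 168 (42.1%) held GCATCAT in the 3′ UTR, against 20 of 325 raised genes (6.15%) and 780 of 10747 genes not called (7.26%). The run was picked from the lowest ratios of these same libraries, so a higher share among the lowered genes was favoured by that choice. The other siRNAs gave no such shift. Median log2 fold changes of the holders were 0.03 with KMT2D siRNA2, -0.00 with KMT2C siRNA1, 0.03 with KMT2C siRNA2 and -0.01 with KMT2C siRNA3, all against the same controls, and -0.23 for siRNA1 against the mean of the KMT2C siRNAs. No mature human microRNA among 2545 in RefSeq has exactly the complement AUGAUGC as its seed. Shorter or shifted seed matches were not searched, and the cause of the shift was not tested.

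The largest rise under the naming rule was that of TP53INP1 (ENSG00000164938), a p53-induced protein of autophagy and cell death. It went from 9.09 to 29.4 CPM in PANC1, from 0.377 to 2.02 CPM in COLO357 and from 2.18 to 12.4 CPM in SUIT2. It was higher in every line although levels overlapped between lines, and rose 4.25-fold (log2 fold change 2.09, SE 0.327, adjusted p = 0.000428). MXD4, a partner of MAX that opposes MYC, went from 6.52 to 22.8, 2.97 to 9.46 and 3.59 to 27.8 CPM and rose by 2.08 (SE 0.349, adjusted p = 0.00148). PDCD6, a calcium-binding protein of membrane traffic and cell death, was the most abundant of the 15, at 32.1, 116 and 34.9 CPM with control siRNA and 102, 259 and 169 CPM with siRNA1. It rose by 1.70 (SE 0.187, adjusted p = 6.71e-06), and part of its reads may belong to the overlapping AHRR.

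The other rises spanned several functions, with log2 fold changes from 1.61 to 1.84. PTPMT1, a mitochondrial phosphatase of cardiolipin synthesis, LZTFL1, a regulator of ciliary traffic, and MSRB3, which repairs oxidised methionine, rose by 1.84, 1.84 and 1.72. MSRB3 reached 161 CPM in PANC1 but 8.08 CPM or less in the other two lines. The lysosomal amino acid transporter SLC36A1 rose by 1.68 and the tight junction claudin CLDN1 by 1.61, the latter from 9.72 to 36.7, 63.5 to 192 and 27.9 to 71.3 CPM. YPEL2, gliomedin GLDN, MINAR1, the presynaptic protein RIMS3, the zinc finger protein ZNF792, the protocadherin PCDH18 and the bacterial lipopeptide receptor TLR1 completed the 15. PTPMT1 overlaps NDUFS3 and TLR1 overlaps TLR6 on the same strand, so their reads are uncertain. Calls of YPEL2, GLDN, RIMS3, PCDH18, TLR1 and CLDN1 ended without at least 1 of the 6 libraries, with adjusted p up to 0.533, and GLDN, RIMS3, PCDH18 and TLR1 lay below 1 CPM in 2 of the 3 controls.

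Falls and rises kept their calls to different degrees when the control libraries were left out of the comparison. Against the mean of the 3 KMT2C siRNAs, which shares the siRNA1 libraries with the main comparison but not the controls, 2707 of 21028 genes passed (12.9%), 1279 of them lower (6.08%) and 1428 higher (6.79%). Of the 458 genes lowered against control, 373 were called lower here as well (81.4%, and 29.2% of the 1279), with a median of -0.85. Of the 387 raised genes, 194 were called higher (50.1%, and 13.6% of the 1428), with a median of 0.49. Among the named falls, 14 of 15 were called, all but SERTAD4 (log2 fold change -0.69, adjusted p = 0.187), and MYOF was at -2.19 with either reference. Among the named rises, 8 of 15 were called. PCDH18 (1.76) and TLR1 (1.79) were as high against the KMT2C siRNAs as against control, TP53INP1 (0.87) and MXD4 (0.95) were under 1, and MSRB3 (-0.02), SLC36A1 (-0.20), CLDN1 (0.13), PTPMT1 (0.15) and PDCD6 (0.23) were near 0. In a direct test against KMT2D siRNA2, in which 2386 of all genes passed (11.3%, with 5.63% lower and 5.72% higher), 12 of the 15 named falls and 4 of the 15 named rises were called.

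**Figure D3:**
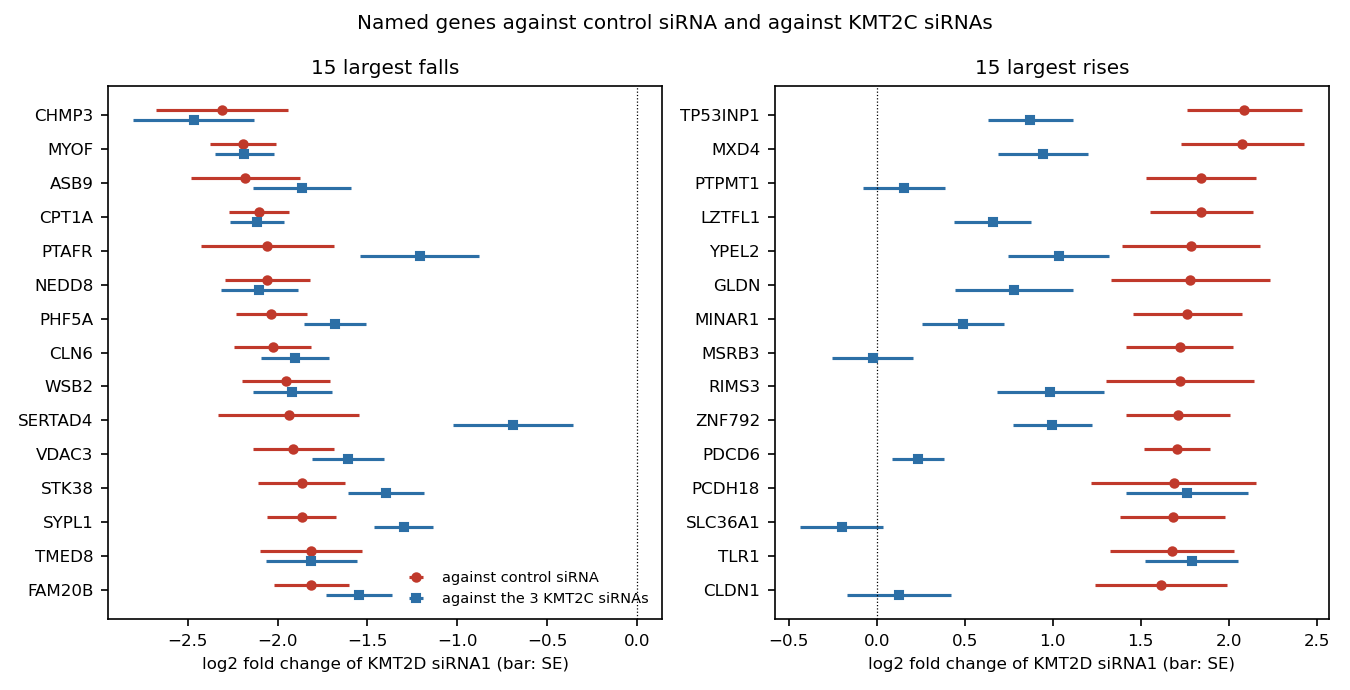
Log2 fold change of KMT2D siRNA1 (bars, SE) for the 15 largest falls and rises, against control siRNA (red circles) and against the mean of the 3 KMT2C siRNAs (blue squares). Most falls keep their size with either reference, as MYOF does at -2.19, but SERTAD4 moves from -1.94 to -0.69, and MSRB3 and SLC36A1 move from 1.72 and 1.68 to -0.02 and -0.20.

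The values of each siRNA against the same 3 controls, which all 5 comparisons share, stand side by side for 3 of these genes. MYOF was at -2.19 with siRNA1 and at 0.04, 0.01, 0.05 and -0.07 with KMT2D siRNA2 and KMT2C siRNA1, siRNA2 and siRNA3. MSRB3 was at 1.72 with siRNA1 and at 2.11, 1.77, 2.17 and 1.29 with those 4. TP53INP1 was at 2.09 with siRNA1, 0.08 with KMT2D siRNA2 and 1.12, 1.20 and 1.32 with the KMT2C siRNAs. The same search for a shared run of 7 bases among the 200 highest genes gave GACAGTA first in 2 of 3 pairs of lines, with 20.5% of them holding it in both pairs against 9.33% and 8.98% of matched others, and TCTCCCC in the remaining pair. Among the 100 highest genes 3 other runs came first, a different one in each pair, so no run led throughout. In the line left out of the search, holders and others had median ratios of 0.01 and 0.00 in PANC1 and 0.13 and 0.01 in COLO357 for GACAGTA. Genes with GACAGTA (877) had medians of 0.10 with siRNA1, 0.15 with KMT2D siRNA2 and 0.07, 0.12 and 0.07 with the KMT2C siRNAs, all against the same controls, and 0.03 for siRNA1 against the KMT2C siRNAs, where genes without it were at 0.05. It was held by 69 of 325 searched raised genes (21.2%) and by 7.26% of genes not called, and of the named rises by RIMS3, SLC36A1 and CLDN1. GACAGTA was picked from the highest ratios of these same libraries, so a higher share among the raised genes was favoured by that choice. These shares were not matched for UTR length, and the median 3′ UTR had 3166 bases in holders and 1008 in other genes.

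Functions were then described with 61 gene lists, of which 1, the mitochondrially encoded messengers, had no tested member. Together they held 1846 tested genes, of which 84 fell and 47 rose (7.1%, against 4.02% of all genes tested). The lists hold mostly well expressed coding genes, and of the 11471 expressed genes with a searched 3′ UTR 3.48% fell and 2.83% rose, so the share in the lists was near that of such genes. Of the 84, 28 held GCATCAT in the 3′ UTR and 30 only in the coding sequence, against 968 and 1413 of the 11471 searched genes. Of the 47 that rose, 5 held it in the 3′ UTR. Holders in the coding sequence were not matched for its length. Of all 399 lowered genes searched, 129 held GCATCAT in neither region, against 9090 of the 11471. The run was picked from the lowest ratios of these same libraries, so holders among the falls of each list were favoured by that choice. The median log2 fold change of all genes tested was 0.00, with 50.4% above 0. Of the 131 called, 51 stayed called whichever of the 6 libraries was left out. In the lists below these included POLA1, CLSPN, POLE, CDC45, H2AC20, FOXM1, EXO1, SMC3, SMC1A, RRP9, TP53INP1, MDM2, CHD3, PIK3CB, TSC2, MET, NRAS, RBPJ, CPT1A, HIF1A, NDUFB3, TOMM20, PDIA4, MCL1, BIRC2, NRBF2, MSRB3, CDC42, DIAPH3, CRK, RARA, CNOT6, CNOT7, REEP5, MXD4, SLC36A1, PTPMT1, WSB1, WSB2 and SF3B3, and each other called gene named below lost its call without at least 1 library. Without the SUIT2 siRNA1 library 58 of the 131 stayed called, and without the SUIT2 control 69. For the counts in each list below, 2.18% of all genes tested were lower and 1.84% higher against control. Against the KMT2C siRNAs these shares were 6.08% and 6.79%.

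Genes of DNA replication included several falls. Among 42 tested members of the G1/S and replication list 6 fell and 0 rose (2.18% and 1.84% of all genes tested). The list median was -0.29, with 6 members above 0. Against the KMT2C siRNAs it was -0.09, with 9 called lower and 2 higher (6.08% and 6.79% of all genes tested). POLA1, the catalytic subunit of the polymerase that starts DNA strands, went from 41.5 to 13.7, 83.8 to 34.1 and 76.8 to 22.8 CPM and fell by 1.53 (adjusted p = 6.9e-06). Its 3′ UTR held GCATCAT. The checkpoint adaptor CLSPN (-0.96), the helicase cofactor CDC45 (-0.87), the helicase subunit MCM5 (-0.75), the polymerase POLE (-0.74) and the primase PRIM1 (-0.76) fell too, and of these POLE, MCM5 and PRIM1 held the run in the coding sequence and CLSPN and CDC45 in neither region. The 32 members without it had a median of -0.24. In bulk RNA, fewer cells in a cycle phase and less RNA per cell cannot be told apart.

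Replication-dependent histone genes included falls as well. Of 46 listed genes 20 matched a symbol in the data and 18 were tested, so the rest of the family was not measured here. Of the 18, 4 fell (2.18% of all genes tested), namely H2AC20, H1-4, H1-2 and H2AC6, from -0.83 to -0.63. None of the 18 lay above 0, and their median was -0.49. H2AC20 went from 401 to 190 CPM in PANC1, 755 to 507 CPM in COLO357 and 619 to 342 CPM in SUIT2. PANC1 moved furthest, with a list median of -1.15 against -0.03 in COLO357 and -0.39 in SUIT2. The list median was -0.19 against the KMT2C siRNAs, with 3 called lower and 0 higher (6.08% and 6.79% of all genes tested). Near-identical histone genes can share reads.

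Mitotic genes also included falls. Of 40 tested genes of G2/M and mitosis, 6 fell and 0 rose (2.18% and 1.84% of all genes tested), with a median of -0.19. It was -0.03 against the KMT2C siRNAs, with 7 called lower and 1 higher (6.08% and 6.79% of all genes tested). FOXM1, the transcription factor of late cell cycle genes, went from 59.1 to 34.4, 71.9 to 35.6 and 163 to 64.8 CPM and fell by 1.05 (adjusted p = 0.000631). MKI67 (-0.81), the centromeric histone CENPA (-0.79), the phosphatase CDC25B (-0.73), the kinase PLK1 (-0.71) and the kinesin CENPE (-0.62) fell as well. MKI67, CENPA and PLK1 held GCATCAT in the 3′ UTR and FOXM1 in the coding sequence. The count rested on single libraries, from 1 to 10 when each of the 6 was left out, and on 1 to 8 for the histones, while that of the replication genes stayed between 4 and 7.

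Other growth-linked lists had falls with few or no rises, against 2.18% lower and 1.84% higher among all genes tested. Of 42 DNA damage genes 3 fell, among them the exonuclease EXO1 (-1.32) and the checkpoint mediator MDC1 (-0.95), with a median of -0.24. Of 21 cohesin and condensin genes the ring subunits SMC3 (-1.05) and SMC1A (-0.95) fell and the cohesin subunit STAG2 (0.76) rose. Of 32 genes of ribosome biogenesis and MYC targets 4 fell, RRP9 (-1.14), UTP4 (-0.94), GAR1 (-0.92) and BYSL (-0.62), each with GCATCAT in the 3′ UTR or coding sequence. Against the KMT2C siRNAs the medians of the DNA damage, cohesin and ribosome biogenesis lists were -0.09, -0.16 and -0.01. Ribosomal proteins did not pass, with 0 of 35 called (4.02% of all genes tested) and a median of 0.11. The splicing factor SF3B3, a partner of PHF5A in SF3b, rose by 0.81 from 196 to 325, 321 to 501 and 302 to 614 CPM. The ligase adaptor WSB1 rose by 1.49 from 32.3 to 116, 40.4 to 88.3 and 38.8 to 114 CPM while its paralog WSB2 fell, and WSB1 was at 0.20 against the KMT2C siRNAs.

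Of 29 CDK inhibitors and p53 targets 3 rose, TP53INP1, the stress-induced SESN1 (1.02) and the CDK inhibitor CDKN1B (0.66), and 1 fell, the p53 ligase MDM2 (-0.99), from 271 to 106 CPM in PANC1, 133 to 80.2 CPM in COLO357 and 134 to 75.9 CPM in SUIT2. The 3′ UTR of MDM2 held GCATCAT. CDKN1B was no longer called without the SUIT2 control or the SUIT2 or COLO357 siRNA1 library.

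Chromatin regulators outside the KMT2 complexes gave few calls. The Polycomb factor MTF2 (0.85), the chromobox protein CBX2 (0.75) and the acetyltransferase KAT5 (0.67) rose among 23 genes, the remodeller CHD3 (-0.80) fell among 23, and the demethylase PHF8 (-0.79) fell among 27. GCATCAT lay in the 3′ UTR of PHF8 and only in the coding sequence of CHD3. CHD3 was at 208, 276 and 321 CPM with control siRNA and 122, 150 and 189 CPM with siRNA1, with no overlap between the groups. None of 27 HOX cluster genes was called (median 0.02), against 4.02% of all genes tested.

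Growth factor signalling changed in single components. PIK3CB, the p110-beta catalytic subunit of PI3K, went from 97.8 to 33, 57.7 to 18.8 and 129 to 30.5 CPM and fell by 1.76 (adjusted p = 6.71e-06). It held GCATCAT in the 3′ UTR, and with KMT2D siRNA2 it was at -1.56. TSC2 (-0.84), the inhibitor of mTOR complex 1, fell and RPTOR (0.66), a subunit of that complex, rose, among 37 genes of the pathway. The hepatocyte growth factor receptor MET (1.35) rose from 96.1 to 182, 63.7 to 178 and 207 to 643 CPM, but was at -0.35 (adjusted p = 0.25) against the KMT2C siRNAs. NRAS rose by 1.05 from 179 to 310, 57.9 to 105 and 95.5 to 278 CPM and was also higher against the KMT2C siRNAs (0.65, adjusted p = 0.0016). The ERK-responsive factor ETV4 (-1.19) fell, and the Notch mediator RBPJ (1.52) rose while the receptor NOTCH2 (-0.67) fell.

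Shares called in the metabolic lists ran from 2.86% to 9.09%, against 4.02% of all genes tested. CPT1A, fatty acid synthase FASN (-1.07) and the oxidation enzyme ACADVL (-0.67) fell among 33 lipid genes whose median was 0.00. All 3 held GCATCAT, CPT1A in the 3′ UTR and the other 2 only in the coding sequence. Of 25 cholesterol synthesis genes 1 rose, HSD17B7 (0.88), and 21 lay above 0 with a median of 0.24. The PANC1 and SUIT2 medians were 0.43 and 0.36, and that of COLO357 was -0.07. HMGCS1, near the start of the pathway, was at 0.71 (adjusted p = 0.101). Against the KMT2C siRNAs, 14 of the 25 were called higher and 0 lower (6.79% and 6.08% of all genes). The hypoxia-induced transcription factor subunit HIF1A (-0.996) and the carbonic anhydrase CA12 (-1.19) fell among 36 glycolysis and hypoxia genes, both with GCATCAT in the 3′ UTR, and the cystine transporter SLC7A11 fell by 1.29. In oxidative phosphorylation NDUFB3 (-1.49) was the 1 call of 35, while the mitochondrial import receptor TOMM20 rose by 1.49 from 94.6 to 224, 188 to 418 and 90 to 396 CPM. The 3′ UTR of NDUFB3 held GCATCAT.

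Stress and death genes were called in both directions, against 1.84% higher and 2.18% lower among all genes tested. Of 34 genes of endoplasmic reticulum folding and ATF4 stress 3 rose, the disulfide isomerase PDIA4 (1.13), SEL1L (0.77) and DNAJC3 (0.79), and 3 fell, the chaperones HYOU1 (-0.83) and CALR (-0.63) and SLC7A11. PDIA4 was at 0.05 (adjusted p = 0.89) against the KMT2C siRNAs. Of 37 apoptosis regulators 2 rose and 3 fell, among them the survival factor MCL1 (1.07), which rose, and the apoptosis inhibitors BIRC2 (-1.12) and XIAP (-0.58), which fell. All 3 falls held GCATCAT, 2 in the 3′ UTR and 1 only in the coding sequence. Of 38 lysosome and autophagy genes 3 rose, the autophagy factors NRBF2 (1.20) and WIPI2 (0.57) and the late endosome GTPase RAB7A (0.64). WIPI2 was also higher against the KMT2C siRNAs (0.40, adjusted p = 0.0222), and NRBF2 and RAB7A were at 0.02 and -0.51.

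Cytoskeleton and adhesion genes formed a smaller group. The cell polarity regulator CDC42 (-1.23), the formins DIAPH3 (-1.18) and DIAPH1 (-0.68) and the myosin MYH9 (-0.57) fell among 42 actin genes. Each held GCATCAT in the 3′ UTR or coding sequence, as did most of the 399 searched lowered genes. CDC42 went from 301 to 89.9 CPM in PANC1, 132 to 87 CPM in COLO357 and 147 to 50.6 CPM in SUIT2. Without holders of the run, the median of the list moved from -0.14 to -0.03. Among keratins, KRT80 (-1.68) and KRT7 (-0.96) fell, KRT80 from 65.5 to 33.7, 11.8 to 2.24 and 123 to 34.9 CPM. The tight junction scaffold TJP1 (-0.77) fell while CLDN1 rose. Of 34 integrin and focal adhesion genes 3 rose, CRK (0.89), PARVA (0.89) and ITGB8 (0.85), while the list median was -0.12 with 21 members below 0. Against the KMT2C siRNAs, 10 of the 34 were called lower and 1 higher (6.08% and 6.79% of all genes tested).

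Retinoid signalling and the clock each had calls, against 4.02% of all genes tested. The retinoic acid receptors RARA (2-fold) and RARG (-1.11 in log2) and the retinol transporter STRA6 (-1.56) fell among 47 genes, although STRA6 was at 0.33 CPM or less in PANC1 and COLO357. RARA was at 14.1, 7.87 and 14.9 CPM with control siRNA and 8.08, 4.56 and 5.7 CPM with siRNA1. Of 22 circadian clock genes the activators CLOCK (-0.62) and BMAL1 (-0.73) and the repressor PER1 (-1.02) fell, and the repressor CRY1 (0.75) rose. The 3′ UTRs of CLOCK and BMAL1 held GCATCAT, and the calls of CLOCK, BMAL1 and PER1 ended without the PANC1 or the SUIT2 siRNA1 library.

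Lists that relate to transfected RNA were examined because both groups received an siRNA. Of 41 interferon response genes 1 fell, OAS3 (-1.19), with GCATCAT in its 3′ UTR, and none rose. The list median was 0.41 with 32 members above 0, but by line it was 0.90 in COLO357, -0.13 in PANC1 and -0.00 in SUIT2. Of 25 genes of the RNA interference machinery the deadenylase subunits CNOT6 (-0.95) and CNOT7 (1.00) changed in opposite directions and TNRC6C (0.72) rose. The 3′ UTR of CNOT6 held GCATCAT.

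Pancreatic identity lists had 0 or 1 call each, against 4.02% of all genes tested. None of 27 pancreatic and endoderm transcription factors and none of 26 classical tumour genes was called, with medians of 0.11 and 0.05, and KRT7 was the 1 call among 27 basal-like genes. At an unadjusted p under 0.05, 3693 of all genes passed the same edgeR test. Of 26 housekeeping genes REEP5 fell 2-fold, from 194 to 72, 229 to 166 and 195 to 89.4 CPM, and RAB7A rose, with a list median of -0.06. The oncofetal messenger-binding protein LIN28B (-2.36) fell and the chromatin protein HMGA2 (1.41) rose, but LIN28B was measurable mainly in PANC1, where it went from 131 to 18.7 CPM, and stood at 0.5 CPM or less in the other two controls.

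**Figure D4:**
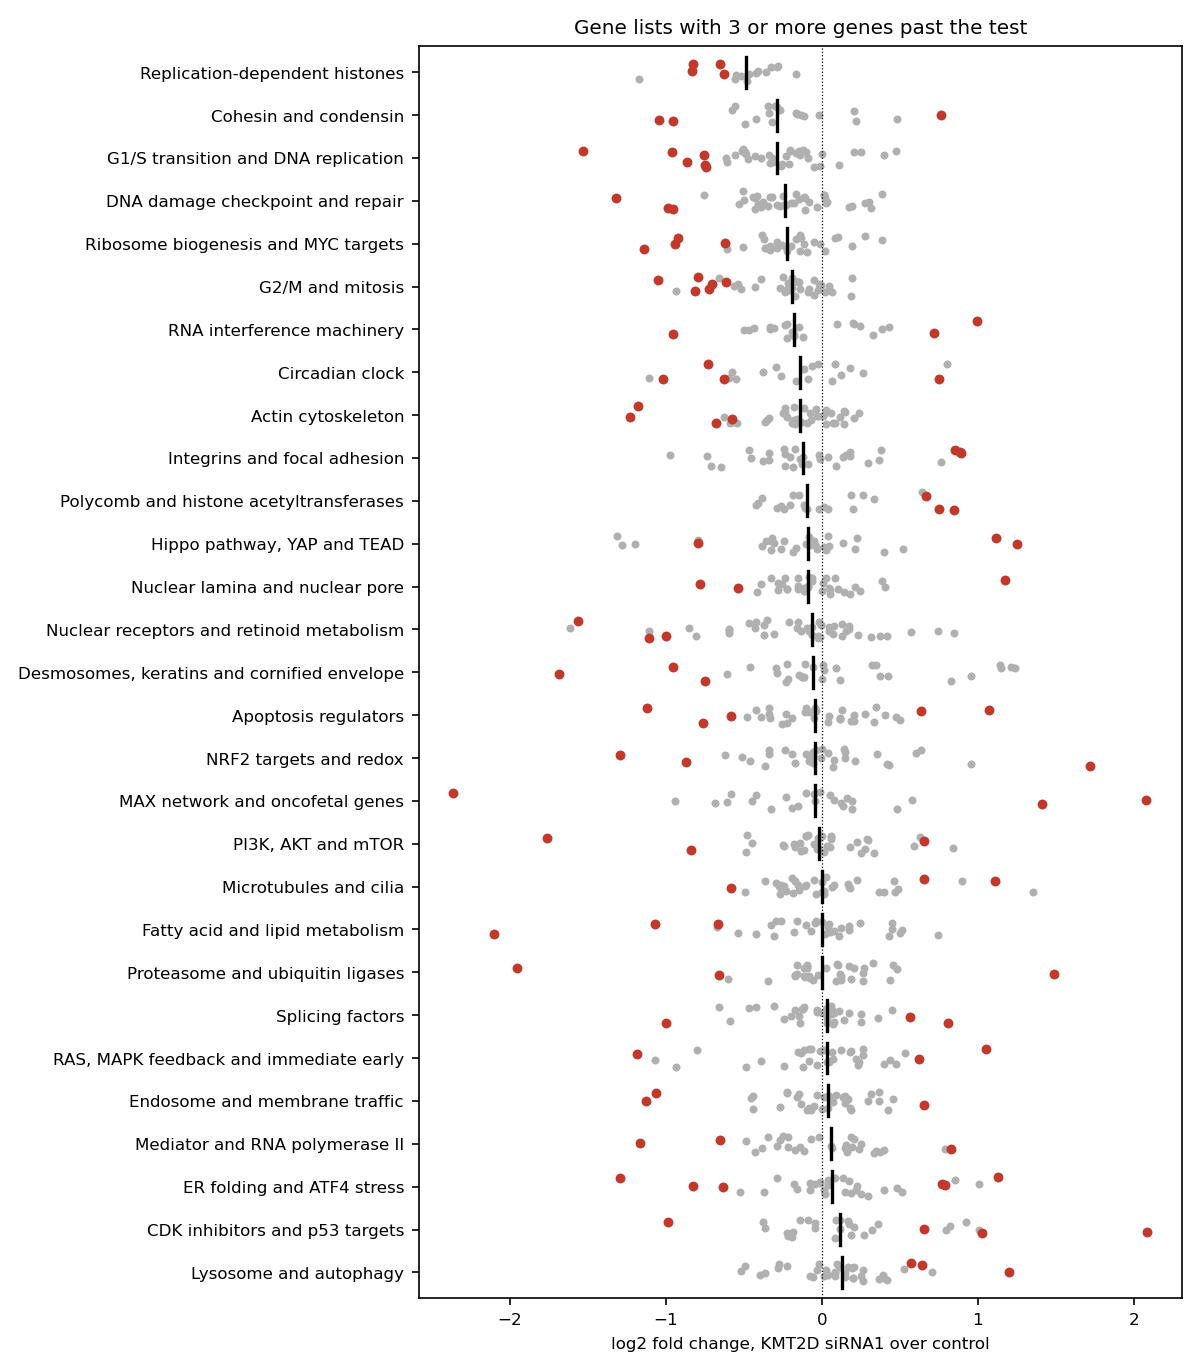
Log2 fold change of every tested member of the 29 lists with at least 3 genes past the test, ordered by median, with red points for genes past the test, grey points for the others and a black bar at the median. The histone list has the lowest median (-0.49) with no member above 0, and most other lists are centred near 0 with red points on both sides.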

How the data were processed

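The authors deposited unnormalized counts per Ensembl gene, 1 table per library. Per the submitters' processing notes, they used FastQC, TopHat2, HTSeq and edgeR with hg19. Tool versions, the annotation and the use of strand are not given in the sources used. Each table held 63677 genes, and rows naming no gene were dropped. Symbols matched 52181 identifiers (81.9%), and gene types and transcripts came from GENCODE v29.

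All 18 libraries were fitted with edgeR 4.0.16 in R 4.3.3 (quasi-likelihood F test, robust, TMM factors 0.946 to 1.06, filter by expression with minimum count 10 and total 15), with a level per siRNA and cell line as a pairing term. The fit had 10 residual degrees of freedom and a common BCV of 0.183. SE was derived from the F statistic (effect divided by its root), and ratios within a line used a prior count of 2. Same-numbered libraries are the same cell line, and their deviations from the group means correlated at 0.923, 0.915 and 0.906 within a line, against at most -0.346 between lines. On simulated counts of 20270 genes for KMT2D siRNA1 against control, 77 of 100 genes changed 2-fold and 98 of 100 changed 4-fold were recovered, with 18 false calls.

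Named genes were the 15 largest rises and falls past an adjusted p of 0.05 with a mean of at least 2 CPM, a protein-coding symbol and one direction in 3 lines, KMT2D and KMT2C, and called list members (up to 8 by p, or the 2 with the smallest p). The comparison, lists and members were chosen with earlier results of these data known. A few called list members are not reported here. Sequencing pools are given for no library, so none entered the fit. Alternatives were RLE factors, 2 other filters, DESeq2 1.42.0, limma-voom (limma 3.58.1), the 6 libraries alone, no line term and leaving out each library. Site classes, the search among raised genes and lists without holders of the run were added after the data were seen.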

Additional observations from a re-analysis of the deposited data

Results flagged for a closer look

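For 16 of the 30 named genes, the effects of the 2 KMT2D siRNAs differed from each other in the same edgeR fit (adjusted p under 0.05, against 11.3% of all genes tested), by a direct test of siRNA1 against siRNA2. The log2 difference, siRNA1 minus siRNA2, was -2.30 in ASB9, -2.23 in MYOF, -2.10 in WSB2, -1.96 in CPT1A, -1.95 in NEDD8 and -1.86 in PHF5A. It was -1.64 in STK38, -1.63 in SYPL1, -1.63 in FAM20B, -1.59 in CHMP3, -1.57 in CLN6 and -1.33 in VDAC3. Of these 12 falls, 10 held GCATCAT in the 3′ UTR, much the same share as the 12 of all 15 named falls. Among the rises, the difference was 2.003 in TP53INP1, 1.12 in ZNF792, 0.88 in LZTFL1 and 0.63 in PDCD6. The named genes were chosen for a large change with siRNA1, so a difference in that direction is favoured by the choice. KMT2D itself differed by -0.36 (adjusted p = 0.491), and the cause of these differences was not tested.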

How the results depend on the processing

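Counts of called genes depended most on the line term and on single libraries. Against 845 calls (387 higher and 458 lower), DESeq2 gave 1290, with 621 higher, and no filter gave 582 higher. Without the pairing by cell line (no replicate block), edgeR gave 0 calls (0 higher, 0 lower), with 515 genes at an unadjusted p under 0.05. Leaving out each of the 6 libraries gave 312 to 1038 calls, 134 to 437 higher and 169 to 601 lower. Against the KMT2C siRNAs (2707, with 1428 higher and 1279 lower), no line pairing left 3 calls (1 higher, 2 lower), and leaving out each siRNA1 library gave 641 to 2169, 281 to 1103 higher and 360 to 1066 lower. The share of lowest genes with GCATCAT was 55.5%, and 40.5% in COLO357 and SUIT2. Among the 100 lowest genes it was 68%, 69% and 46% in the 3 pairs of lines. None of the 30 named genes changed direction in any alternative run, and 30 lost their call without the line term. Of 198 planned list medians, 195 moved by less than the spread between lines, and without holders of GCATCAT, a setting added later, 53 of 66 did and 13 moved more. With 1 library per siRNA and line, 3 siRNA1 libraries set the precision, and changes of 2-fold were partly missed in simulation. Gene counts of the 2 groups overlapped.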
